A study of Mus musculus with 24 samples.

Results

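The genes of the autophagy machinery were measured in mouse embryonic fibroblasts (MEFs) whose PERK arm of the unfolded protein response had been removed, blocked or switched on. The set holds 36 genes chosen by name for their place in the pathway, of 20150 genes that the array names with a single symbol. All 36 were on the array, and 35 could be tested among 14461 genes in all. Atg4a, a protease of the pathway, was not well above background on any of the 24 arrays and has only a bound. The other 35 were well above background on all 24 arrays, so none of them entered the test through a single group.

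Cells of 5 kinds were compared, each after 12 h with an agent, by the sample labels, and untreated. The protocol in the labels names 12 or 24 h, and the name of 1 array, the second untreated one of Perk-null cells, gives 24 h for its mock treatment. Perk-null MEFs (label PERKKO) had 2 tunicamycin and 2 untreated arrays, and so had Atf4-null MEFs (ATF4KO) and eIF2a A/A MEFs, in which alanine replaces the serine of eIF2a that stress kinases phosphorylate. MEFs with the Fv2E-PERK transgene, a PERK kinase domain joined to a domain that a small molecule brings together, had 2 arrays with AP, the label's name for that agent, and 2 untreated. Wild-type MEFs had 4 tunicamycin and 4 untreated arrays. Tunicamycin, which stops N-glycosylation and so loads the endoplasmic reticulum (ER) with unfolded protein, was used at 2 µg/mL. The dose of AP, the promoter of the transgene, and whether each line is a clone are not given in the sources used here, nor is it said that replicates came from separate cultures, so a p-value reflects the scatter among these arrays alone, which may be technical.

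Autophagy wraps cytoplasm in a double membrane and delivers it to the lysosome. A kinase complex around ULK1 starts it, a lipid kinase complex around Beclin 1 marks the site, lipid transfer and scramblase proteins enlarge the membrane, and a chain of ubiquitin-like conjugations fixes LC3 and GABARAP proteins to it. Receptor proteins tie cargo to LC3, and the transcription factor TFEB drives lysosomal genes. In fibroblasts under ER stress, PERK phosphorylates eIF2a, which favours translation of ATF4. ATF4 with its target CHOP (gene Ddit3) is known to bind several autophagy genes.

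Each level below is the log2 of a gene's processed spot signal minus the 75th percentile of its array, from the brightest probe of the gene. A level of 0 is the brightness of that percentile, and levels of different genes are not compared because their probes differ. A gene was called changed where limma's adjusted p, over all 14461 genes of the comparison, was under 0.05. The arrays were scanned in 3 runs. Run 1 held wild-type replicates 1 and 2 with the Atf4-null arrays, on 1 slide of tunicamycin arrays and 1 of untreated arrays, so that slide and treatment cannot be told apart there. Run 2 held wild-type replicates 3 and 4 with the arrays of Perk-null cells, and the other lines were in run 3. Xist was above background on wild-type arrays of run 1 and not on those of run 2, where Y-linked genes were, so the wild-type cells of the 2 runs differ in origin, and a term for the run was fitted.

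The targeted genes and the stress markers were checked first. Atf4 was at -4.27 and 0.01 on the tunicamycin arrays of Atf4-null cells, the -4.27 array not above background, and at 2.79 and -0.05 untreated, against 8.63 to 9.14 and 7.20 to 7.65 in wild type. The Eif2ak3 probe, for PERK itself, was at 0.00 and 0.28 on treated and 0.00 and -0.47 on untreated Perk-null arrays, against 0.89 to 1.79 and -0.05 to 1.04 in wild type, so it stayed measurable in the null cells, and whether it lies in the deleted part is not known here. Ddit3, for CHOP, rose by 4.67 in wild type (SE 0.14, adjusted p = 4.09e-12). Its log2 change was 1.27 in Perk-null, 3.47 in Atf4-null, 1.13 in eIF2a A/A and 2.32 in Fv2E-PERK cells, each called. Hspa5, for the ER chaperone BiP, rose by 2.18 in wild type (SE 0.10, adjusted p = 2.53e-10), and its value with AP was not called.

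In wild-type cells tunicamycin raised 13 of the 35 autophagy genes and lowered 1, where 37.5% of all genes tested were called, 21.2% higher and 16.3% lower. The genes that rose were spread over the pathway, with 2 of 5 initiation genes, 2 of 5 nucleation genes, 1 of 4 phagophore membrane genes, 4 of 9 conjugation genes, 3 of 5 LC3 and GABARAP genes and 1 of 4 receptors. The member median was 0.25 on the log2 scale, against 0.07 over all genes tested. Of the lysosome group only Tfeb was called, and it fell. Of all called genes 56.5% were higher. With quantile normalization 46.2% were, and the medians were 0.20 for the members and -0.02 over all genes.

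**Figure D1:**
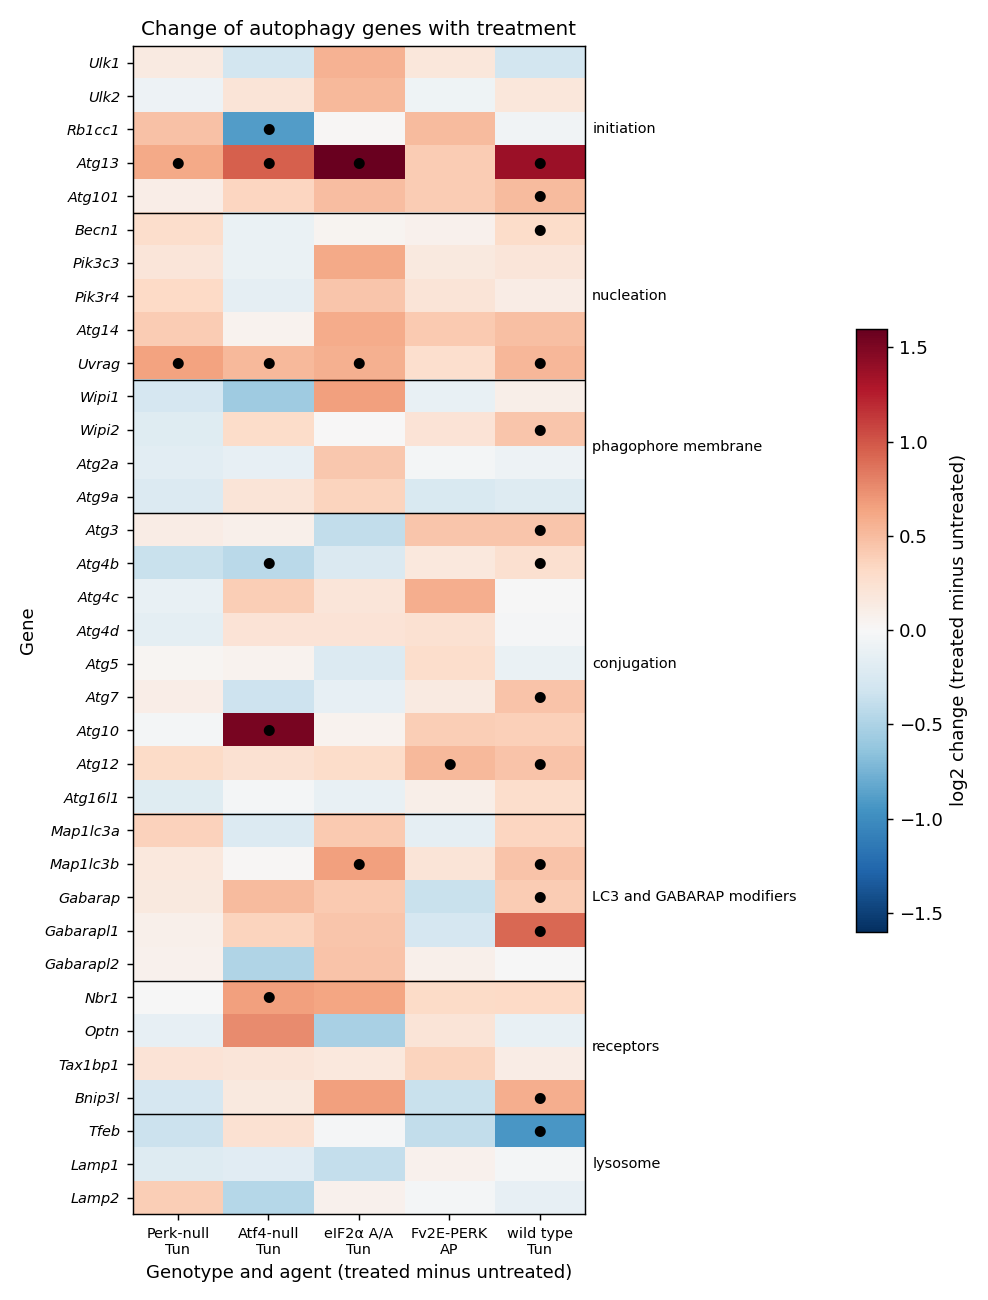
Log2 change of the 35 tested autophagy genes (rows, grouped by step) with 12 h of tunicamycin (Tun) or AP in each genotype (columns), treated minus untreated, on a colour scale with red for higher. Dots mark changes with an adjusted p under 0.05: Atg13 and Uvrag have dots in the Perk-null, Atf4-null, eIF2a A/A and wild-type columns, and the wild-type column has 14.

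Among the initiation genes Atg13, the adaptor that holds the ULK1 kinase complex together, changed most. It was at 4.36, 4.08, 4.68 and 4.63 on the tunicamycin arrays of wild type, against 3.16, 2.95, 3.06 and 3.11 on the untreated arrays. Every treated array lay above every untreated array. The change was 1.37 (SE 0.11), or 2.58-fold, with an adjusted p of 1.3e-07. It was 1.17 within run 1 and 1.57 within run 2. Atg101, the partner that stabilises Atg13, was at 4.76, 4.23, 4.56 and 4.59 treated, against 3.78, 3.90, 4.23 and 4.20 untreated. The lowest treated and the highest untreated array lay side by side. Its change was 0.51 (SE 0.10, adjusted p = 0.00118), with 0.66 within run 1 and 0.36 within run 2, the second not called (adjusted p = 0.0789). The kinases themselves were not called: Ulk1 had a change of -0.29 (SE 0.13, adjusted p = 0.0872) and Ulk2 of 0.18 (SE 0.13, adjusted p = 0.3), and the scaffold Rb1cc1 had -0.06 (SE 0.18, adjusted p = 0.834). Dimmer second probes gave the other sign, -0.19 for Ulk2 and 0.41 for Rb1cc1.

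Uvrag, which binds Beclin 1 and acts in membrane curvature and vesicle maturation, led the nucleation genes. Its levels were 3.96, 3.49, 3.89 and 3.82 on treated wild-type arrays, against 3.19, 3.27, 3.18 and 3.40 on untreated ones. The groups did not overlap, and the change was 0.53 (SE 0.11), 1.45-fold, with an adjusted p of 0.00113. The values within runs 1 and 2 were 0.50 and 0.57. Becn1, for Beclin 1, rose by 0.29 (SE 0.10, adjusted p = 0.0358), a call that was lost without any of 6 of the 8 wild-type arrays (adjusted p between 0.06 and 0.127). The lipid kinase Pik3c3, its regulator Pik3r4 and Atg14 had changes of 0.19, 0.11 and 0.48 that were not called.

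The promoters of these members are shown because Atg13 and Uvrag moved together in several genotypes and because Atg3 carries the only match to the TFEB element. They run from 250 bases before to 50 after the gene start, from RefSeq on build GRCm38.p6, 5′ to 3′ on the gene's strand (minus for Atg13 and Uvrag, plus for Atg3). Capitals mark matches to the motifs searched on both strands.
Atg13 (chr2:91710543-91710842): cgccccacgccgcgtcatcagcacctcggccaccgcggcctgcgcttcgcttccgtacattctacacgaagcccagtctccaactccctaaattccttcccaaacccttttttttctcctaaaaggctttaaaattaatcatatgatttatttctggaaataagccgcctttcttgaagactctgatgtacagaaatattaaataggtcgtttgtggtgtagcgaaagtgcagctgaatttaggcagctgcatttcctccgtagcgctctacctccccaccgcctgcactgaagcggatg
Uvrag (chr7:99141095-99141394): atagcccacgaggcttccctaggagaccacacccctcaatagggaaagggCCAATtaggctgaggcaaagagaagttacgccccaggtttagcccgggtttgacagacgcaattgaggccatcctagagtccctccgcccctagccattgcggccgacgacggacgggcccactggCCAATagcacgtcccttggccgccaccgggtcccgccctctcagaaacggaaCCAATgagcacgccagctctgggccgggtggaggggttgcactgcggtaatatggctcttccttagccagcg
Atg3 (chr16:45158579-45158878): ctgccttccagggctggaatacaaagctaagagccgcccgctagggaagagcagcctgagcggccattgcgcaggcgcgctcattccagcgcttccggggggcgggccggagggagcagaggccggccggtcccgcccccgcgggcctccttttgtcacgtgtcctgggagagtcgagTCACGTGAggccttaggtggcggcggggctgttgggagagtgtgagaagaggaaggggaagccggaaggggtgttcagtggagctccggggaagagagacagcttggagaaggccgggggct
Of the 36 members 29 were in the RefSeq promoter table. The C/EBP-ATF composite core TGATGNAA, the letters that ATF4 and CHOP partners are known to read, was in 0 of the 29, against 4.51% of all 27025 genes in the table. The core of the CLEAR element that TFEB reads, TCACGTGA, was in 1, Atg3, where the match begins 72 bases before the start, against 1.12% of all genes. The XBP1 and ATF6 core TGACGTGG was in 0, against 0.714%. Motifs added after these sequences had been seen were the cAMP response element TGACGTCA, in 1 member (Atg5) against 2.03%, and the CCAAT box, in 9 members against 41.1%. Uvrag has 3 CCAAT boxes, and Atg13 has no match to any of these motifs. No match says only that these letters are not in this window.

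Of the phagophore membrane genes only Wipi2, a lipid-binding protein that recruits the conjugation machinery, was called in wild type. It was at 2.36, 1.41, 2.24 and 2.20 treated, against 1.77, 1.57, 1.55 and 1.52 untreated, a change of 0.45 (SE 0.17, adjusted p = 0.0454). Replicate 2 of the treated arrays lay below all untreated arrays, and without it the gene was still called. The call was lost without any of 6 other arrays (adjusted p between 0.0779 and 0.168). Wipi1, Atg2a and the scramblase Atg9a had changes of 0.10, -0.08 and -0.21, none called.

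The conjugation genes that rose act at several steps of the chain. Atg12, the ubiquitin-like protein joined to Atg5, was at 3.39, 3.18, 3.20 and 3.30 on treated wild-type arrays, against 2.76, 2.95, 2.72 and 2.82 on untreated arrays. The groups did not overlap, and the change of 0.46 (SE 0.09) had an adjusted p of 0.000973. Atg3, the E2-like enzyme that loads LC3 onto lipid, was at 3.0, 2.90, 3.31 and 3.39 treated, against 2.24, 2.75, 2.84 and 3.0 untreated, with a change of 0.44 (SE 0.11, adjusted p = 0.00524). The protease Atg4b rose by 0.25 (SE 0.09, adjusted p = 0.0433) and was not called without any of 6 of the 8 arrays (adjusted p between 0.0593 and 0.139).

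Atg7, the E1-like enzyme that both conjugation chains share, behaved differently in the 2 wild-type runs. In run 1 it was at 1.91 and 1.69 treated, against 0.88 and 0.82 untreated, a change of 0.95 (adjusted p = 2.95e-05). In run 2 it was at 1.17 and 1.19 treated, against 1.18 and 1.25 untreated, a change of -0.04 (adjusted p = 0.886). The difference of the changes, run 2 minus run 1, was -0.98 and the only member difference called, where 7.88% of all genes were. The change over both runs, 0.45 (SE 0.15, adjusted p = 0.0271), is thus a mean of unlike values, and it was not called without any of the 4 arrays of run 1 (adjusted p between 0.078 and 0.108). A second, dimmer Atg7 probe gave 1.03 in run 1 and 0.00 in run 2. Atg5, Atg10, Atg16l1, Atg4c and Atg4d had changes from -0.11 to 0.38 that were not called.

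Of the LC3 and GABARAP genes 3 rose. Gabarapl1 was at 6.40, 5.95, 6.52 and 6.55 on treated wild-type arrays, against 5.08, 5.32, 5.61 and 5.75 on untreated ones. The groups did not overlap, and the change of 0.91 (SE 0.13), 1.89-fold, had an adjusted p of 6.5e-05. It was 0.97 within run 1 and 0.85 within run 2. Map1lc3b, for the widely used marker protein LC3B, was at 4.98, 4.74, 4.65 and 4.66 treated, against 4.21, 4.75, 4.15 and 4.12 untreated, a change of 0.45 (SE 0.11, adjusted p = 0.00531). Untreated replicate 2 lay above 3 of the treated arrays. Gabarap rose by 0.40 (SE 0.14, adjusted p = 0.0295), with 0.73 within run 1 and 0.07 within run 2, and was not called without untreated replicate 1 (adjusted p = 0.0979), treated replicate 1 (0.114) or treated replicate 2 (0.0625). Map1lc3a and Gabarapl2 had changes of 0.34 and -0.01, neither called.

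Of the receptors Bnip3l, a mitochondrial outer membrane protein that binds LC3 during mitophagy, rose in wild type. It was at 5.32, 4.99, 4.36 and 4.38 treated, against 4.13, 4.43, 4.0 and 4.15 untreated. The groups overlapped across runs but not within them. The change of 0.58 (SE 0.13, adjusted p = 0.00274) was 0.87 within run 1 and 0.30 within run 2, the second not called (adjusted p = 0.22). All 4 Bnip3l probes were higher on average after treatment. The receptors Nbr1, Optn and Tax1bp1 had changes of 0.32, -0.12 and 0.12, none called.

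Tfeb was the member that fell in wild type. It was at -1.26, -1.35, -1.93 and -1.56 treated, against -0.42, -0.69, -0.54 and -0.74 untreated, so that every treated array lay below every untreated array. The change was -0.93 (SE 0.18, adjusted p = 0.000933), 1.9-fold lower, with -0.75 within run 1 and -1.10 within run 2. The lysosomal membrane proteins Lamp1 and Lamp2 had changes of -0.03 and -0.13, neither called, and a dimmer Lamp2 probe gave 0.24.

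Libraries and other cell markers moved beside the wild-type response. Treated replicate 2 was the lowest of its group in 21 of 35 members and the highest in 0, while treated replicate 1 was the highest in 22. Of 12 fibroblast markers 7 fell and 0 rose with tunicamycin (median -1.37), and Lum was not above background on any treated wild-type array. Their summed level was 8.84 to 9.61 on the log2 scale on treated arrays, against 9.46 to 10.1 on untreated arrays. Of the epithelial, blood, endothelial and muscle markers tested 0 rose, while 1 of 5 epithelial and 1 of 2 muscle markers fell. The part of these shifts in the autophagy results was not tested. In bulk RNA a change in the mix of cells and a change per cell cannot be told apart.

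In Perk-null cells tunicamycin raised 2 autophagy genes, Uvrag and Atg13, and lowered 0, where 2.28% of all genes were called, 1.87% higher and 0.408% lower. At an unadjusted p under 0.05 in limma, 3 members were higher and 1 was lower. Uvrag was at 3.59 and 3.96 treated, against 3.06 and 3.20 untreated. The arrays did not overlap, and the change of 0.64 (SE 0.15), 1.56-fold, had an adjusted p of 0.0367. Atg13 was at 3.58 and 3.74 treated, against 3.10 and 3.0 untreated, a change of 0.61 (SE 0.15, adjusted p = 0.0448). The Uvrag call was lost without untreated replicate 1, untreated replicate 2 or treated replicate 2 (adjusted p = 0.256, 0.104 and 0.416), and the Atg13 call without any of the 4 arrays (adjusted p between 0.101 and 0.361). Untreated replicate 2 and treated replicate 1 lay on a second slide, and with that slide as a term the adjusted p was 0.0451 for Uvrag and 0.0527 for Atg13. Treated replicate 1 was the lower of its pair in 28 of 35 members, and untreated replicate 2 is the array whose name gives 24 h. Their part was not tested. Gabarapl1 and Bnip3l, which rose in wild type, had changes of 0.09 and -0.27 in Perk-null cells.

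In eIF2a A/A cells 3 autophagy genes rose and 0 fell, where 4.89% of all genes were called, 3.08% higher and 1.81% lower. At an unadjusted p under 0.05 in limma, 18 members were higher and 2 were lower. Atg13 was at 4.43 and 4.41 treated, against 2.80 and 2.88 untreated, the widest member change in this genotype. It amounted to 1.58 (SE 0.15), 2.98-fold, with an adjusted p of 1.81e-05, and it was called without any single array. Map1lc3b was at 4.70 and 4.71 treated, against 4.02 and 4.08 untreated, a change of 0.66 (SE 0.16, adjusted p = 0.026). Uvrag was at 3.92 and 3.95 treated, against 3.31 and 3.43 untreated, a change of 0.57 (SE 0.15, adjusted p = 0.0433). Both of these calls were lost without any of the 4 arrays of the genotype, with adjusted p between 0.133 and 0.176 for Map1lc3b and between 0.149 and 0.277 for Uvrag. The member median was 0.36, against 0.01 over all genes. The eIF2a A/A arrays lay close together, with a median SD per gene of 0.0671 treated and 0.0896 untreated. In wild type it was 0.373 and 0.348, but across 2 runs. The median absolute difference within a pair of arrays was 0.0949 treated and 0.127 untreated in eIF2a A/A cells. In wild type it was 0.102 and 0.124 within run 2, and 0.328 and 0.333 within run 1. In a fit of only these 4 arrays 18 members were called in place of 3, where 22.7% of all genes were called. Untreated replicate 1 was the lower of its pair in 27 of 35 members.

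In Atf4-null cells tunicamycin raised 4 autophagy genes and lowered 2, where 29% of all genes were called, 11.9% higher and 17% lower. Atg10, the E2-like enzyme that joins Atg12 to Atg5, was at -0.77 and -0.58 treated, against -1.61 and -2.77 untreated. Its change of 1.51 (SE 0.27), 2.85-fold, had an adjusted p of 0.000905, and a second probe of the gene gave 1.54. The 2 untreated arrays differed by more than the treated ones did from the nearer untreated array. Atg13 was at 3.43 and 3.77 treated, against 2.69 and 2.60 untreated, a change of 0.96 (SE 0.15, adjusted p = 0.000288) that was called without any single array. Treated replicate 1 was dimmer than its partner, with a 75th percentile of 111 and 45.5% of probes well above background, against 285 and 58.2%. With treatment 1 of 5 epithelial, 1 of 2 blood and 1 of 2 muscle markers tested rose and 0 fell (medians 0.63, 0.91 and 0.93), and 0 of 12 fibroblast and 0 of 2 endothelial markers were called. The summed epithelial level was -0.23 to 0.32 treated, against -1.40 to -0.77 untreated, while Epcam, Cdh1, Krt8 and Krt18, and the muscle markers Myod1, Myog, Des, Actc1 and Myh3, were above background on no Atf4-null array. The part of these in the autophagy results was not tested.

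The other calls in Atf4-null cells were less firm. Rb1cc1 was at 0.97 and 1.78 treated, against 1.99 and 2.56 untreated, and fell by 0.90 on the log2 scale (SE 0.26, adjusted p = 0.0167). Its second probe gave -0.89, and the call was lost without untreated replicate 2 (adjusted p = 0.18) or treated replicate 1 (0.209). Nbr1, a cargo receptor for ubiquitinated proteins, was at 0.10 and 0.18 treated, against -0.44 and -0.58 untreated, a change of 0.65 (SE 0.23, adjusted p = 0.0409) not called without any of the 4 arrays (adjusted p between 0.0563 and 0.181). Uvrag was at 3.61 and 3.73 treated, against 3.13 and 3.18 untreated, a change of 0.52 (SE 0.15, adjusted p = 0.0189). Without untreated replicate 2 or treated replicate 2 its adjusted p was 0.0617 or 0.0961. Atg4b fell by 0.43 on the log2 scale (SE 0.13, adjusted p = 0.0226), also not called without untreated replicate 2 (0.104) or treated replicate 2 (0.149).

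Activation of the Fv2E-PERK transgene by AP raised 1 autophagy gene and lowered 0, where 4.07% of all genes were called, 2.79% higher and 1.27% lower. At an unadjusted p under 0.05 in limma, 5 members were higher and 0 were lower. Atg12 was at 2.91 and 2.95 with AP, against 2.36 and 2.46 untreated. The change of 0.52 (SE 0.13), 1.43-fold, had an adjusted p of 0.0336, was lost without any of the 4 arrays (adjusted p between 0.134 and 0.242), and a dimmer Atg12 probe gave 0.05. Atg4c was at 1.29 and 1.27 with AP, against 0.70 and 0.68 untreated, a change of 0.58 (SE 0.23) with an adjusted p of 0.197. Atg13 and Uvrag had changes of 0.40 (adjusted p = 0.168) and 0.26 (adjusted p = 0.423). Tfeb, Gabarap, Bnip3l and Gabarapl1 had the lowest changes, -0.39, -0.35, -0.35 and -0.26, none called, while 25 of the 35 members had a positive change. The 3 dimmer Bnip3l probes gave -1.21, -0.41 and -0.38. In a fit of only these 4 arrays 12 members were called, where 28.7% of all genes were called.

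**Figure D2:**
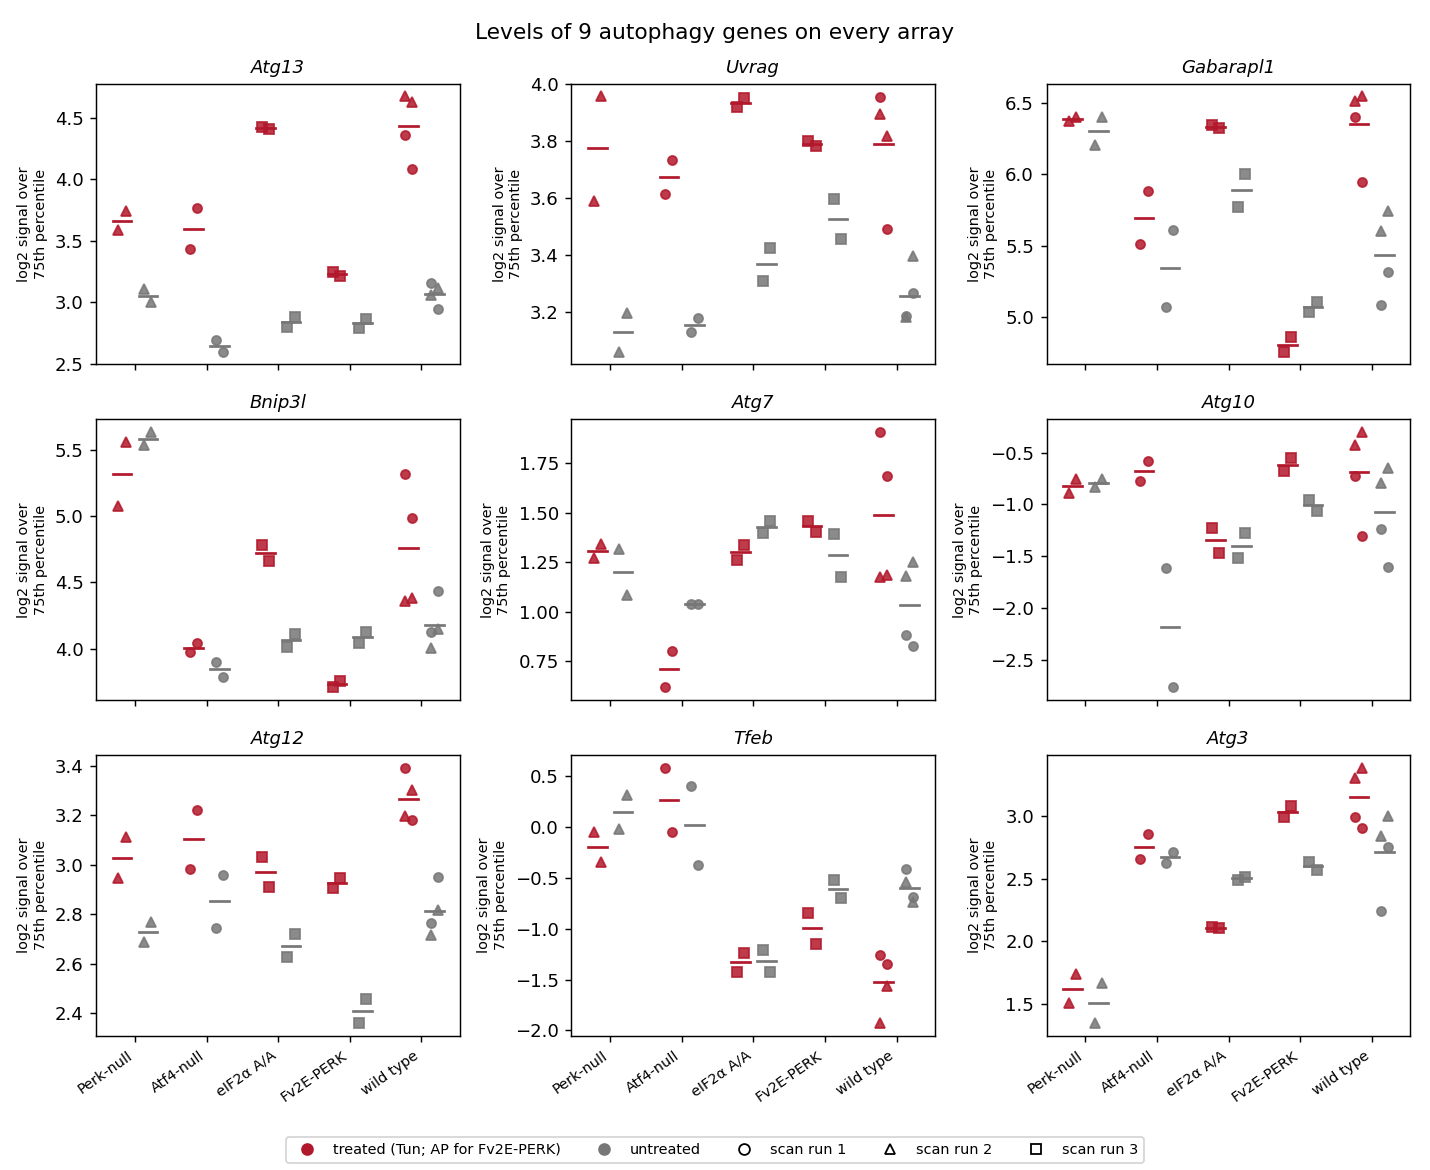
Level of 9 autophagy genes on each of the 24 arrays (points, shaped by scan run), in log2 units relative to the 75th percentile of its array, with treated arrays (red) left of untreated arrays (grey) in each genotype and bars at group means. For Atg13 every treated array lies above every untreated array of the same genotype, while Atg7 parts the wild-type arrays of run 1 (circles) from those of run 2 (triangles).

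The next comparisons ask which responses to tunicamycin differed between a mutant and wild type, as the mutant change minus the wild-type change. The 3 differences share the wild-type arrays and are given side by side only. Between Perk-null and wild-type cells 4 members differed, and for all 4 the change was lower in Perk-null cells, where 13.2% of all genes were called, 6.52% higher and 6.63% lower. Gabarapl1 was at 6.37 and 6.41 on treated Perk-null arrays, against 6.21 and 6.40 untreated, and Bnip3l at 5.08 and 5.56, against 5.54 and 5.64. Atg4b was at -0.47 and -0.78, against -0.25 and -0.29, both treated arrays below both untreated ones, whereas in wild type it was at 0.91, 0.74, 0.38 and 0.41, against 0.52, 0.35, 0.31 and 0.24. None of these 3 was raised on both Perk-null arrays above both untreated arrays, while Atg13 was. Atg13 had a change of 0.61 in Perk-null and 1.37 in wild-type cells, a difference of -0.76 (95% interval -1.15 to -0.37, adjusted p = 0.013). Bnip3l had -0.27 and 0.58, a difference of -0.85 (-1.34 to -0.36, adjusted p = 0.0236). Gabarapl1 had 0.09 and 0.91, a difference of -0.83 (-1.31 to -0.34, adjusted p = 0.026). Atg4b had -0.35 and 0.25, a difference of -0.61 (-0.95 to -0.26, adjusted p = 0.0221). Uvrag, which was called in both genotypes, had a difference of 0.11 (-0.28 to 0.51).

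These Perk-null differences rested on few arrays. Against wild-type arrays of run 2 alone, the run that holds the Perk-null arrays, Atg13 remained called at -0.96 (adjusted p = 0.00547). Bnip3l, Gabarapl1 and Atg4b were then at -0.56, -0.77 and -0.47 with adjusted p of 0.153, 0.0962 and 0.119. Without treated Perk-null replicate 1 the adjusted p was 0.0683 for Atg13, 0.148 for Bnip3l and 0.0877 for Gabarapl1. Leaving out untreated Perk-null replicate 1 gave 0.0659, 0.0649 and 0.0533, with 0.0883 for Atg4b. Without untreated replicate 2 the adjusted p was 0.0832 for Bnip3l, 0.105 for Gabarapl1 and 0.059 for Atg4b, and without treated replicate 2 it was 0.0734 for Gabarapl1 and 0.134 for Atg4b. Both Gabarapl1 and Bnip3l were higher in untreated Perk-null than in untreated wild-type cells, a comparison that shares its untreated arrays with these differences. Of the fibroblast markers 5 had a higher change in Perk-null cells and 0 a lower one, and the part of this was not tested.

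In Atf4-null cells the response of 4 members differed from wild type. The change was higher in Atf4-null cells for 2 and lower for 2, where 30.4% of all genes were called, 10.9% higher and 19.5% lower. Tfeb was at 0.58 and -0.05 on treated Atf4-null arrays, against 0.41 and -0.37 untreated, and Atg7 at 0.62 and 0.80, against 1.04 and 1.04. Atg4b was at 0.35 and 0.14 treated, against 0.65 and 0.72 untreated. The Tfeb arrays overlapped, and those of Atg7 and Atg4b were lower after treatment. Tfeb had a change of 0.25 in Atf4-null and -0.93 in wild-type cells, a difference of 1.17 (0.50 to 1.85, adjusted p = 0.0118). Atg10 had 1.51 and 0.38, a difference of 1.13 (0.42 to 1.84, adjusted p = 0.0195). Atg7 had -0.33 and 0.45, a difference of -0.78 (-1.34 to -0.23, adjusted p = 0.0342). Atg4b had -0.43 and 0.25, a difference of -0.69 (-1.03 to -0.34, adjusted p = 0.00546), and was called without any single array. Without untreated Atf4-null replicate 2 Tfeb was at 0.78 (adjusted p = 0.0973) and Atg10 at 0.55 (0.145), without treated replicate 1 Tfeb was at 0.86 (0.0795), and without treated replicate 2 Atg10 was at 1.04 (0.0667). The Atg7 call was lost without any of 7 of 12 arrays (adjusted p between 0.0523 and 0.117). Against the wild type of run 1 alone, the Atg7 difference was -1.27 (adjusted p = 8.14e-05). Of the cell markers tested, 2 of 12 fibroblast (median 0.72), 2 of 5 epithelial (median 0.86) and 1 of 2 muscle markers had a higher change in Atf4-null cells and 1 of 2 endothelial markers a lower one, and their part was not tested.

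The scale mattered for the Atf4-null differences as a group. The median over all genes was -0.13 with the 75th percentile and 0.00 with quantile normalization, and the member median was -0.21 with the first and 0.07 with the second, so that 11 or 22 of 35 members had a positive difference. Of all called genes 35.8% were higher with the first and 50.8% with the second. No direction is therefore given for the members as a group.

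In eIF2a A/A cells the response of 2 members differed from wild type, 1 higher and 1 lower, where 18.2% of all genes were called, 8.11% higher and 10.1% lower. Ulk1 was at 4.67 and 4.66 on treated eIF2a A/A arrays, against 4.02 and 4.19 untreated, while wild type had 3.46, 2.96, 3.82 and 4.05 treated, against 3.62, 3.90, 3.89 and 4.04 untreated. The changes of 0.56 and -0.29, each not called by itself, differed by 0.85 (0.38 to 1.32, adjusted p = 0.0142). Without untreated eIF2a A/A replicate 1, treated replicate 1 or treated replicate 2 the adjusted p was 0.0764, 0.0563 or 0.0557. Atg3 was at 2.11 and 2.10 on treated eIF2a A/A arrays, against 2.49 and 2.52 untreated, below them where wild type had risen. Its difference of -0.84 (-1.24 to -0.43, adjusted p = 0.00678) was called without any single array. Run 3 holds no wild-type array, so line and run cannot be told apart in levels, and the difference compares changes made within runs. Of 12 fibroblast markers 3 had a higher change in eIF2a A/A cells and 0 a lower one (median 1.86). Their summed level was 10.2 to 10.3 treated, against 10.4 to 10.5 untreated, in eIF2a A/A cells and 8.84 to 9.61, against 9.46 to 10.1, in wild type, and their part was not tested. Of all called genes 44.6% were higher with the 75th percentile and 56.2% with quantile normalization.

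**Figure D3:**
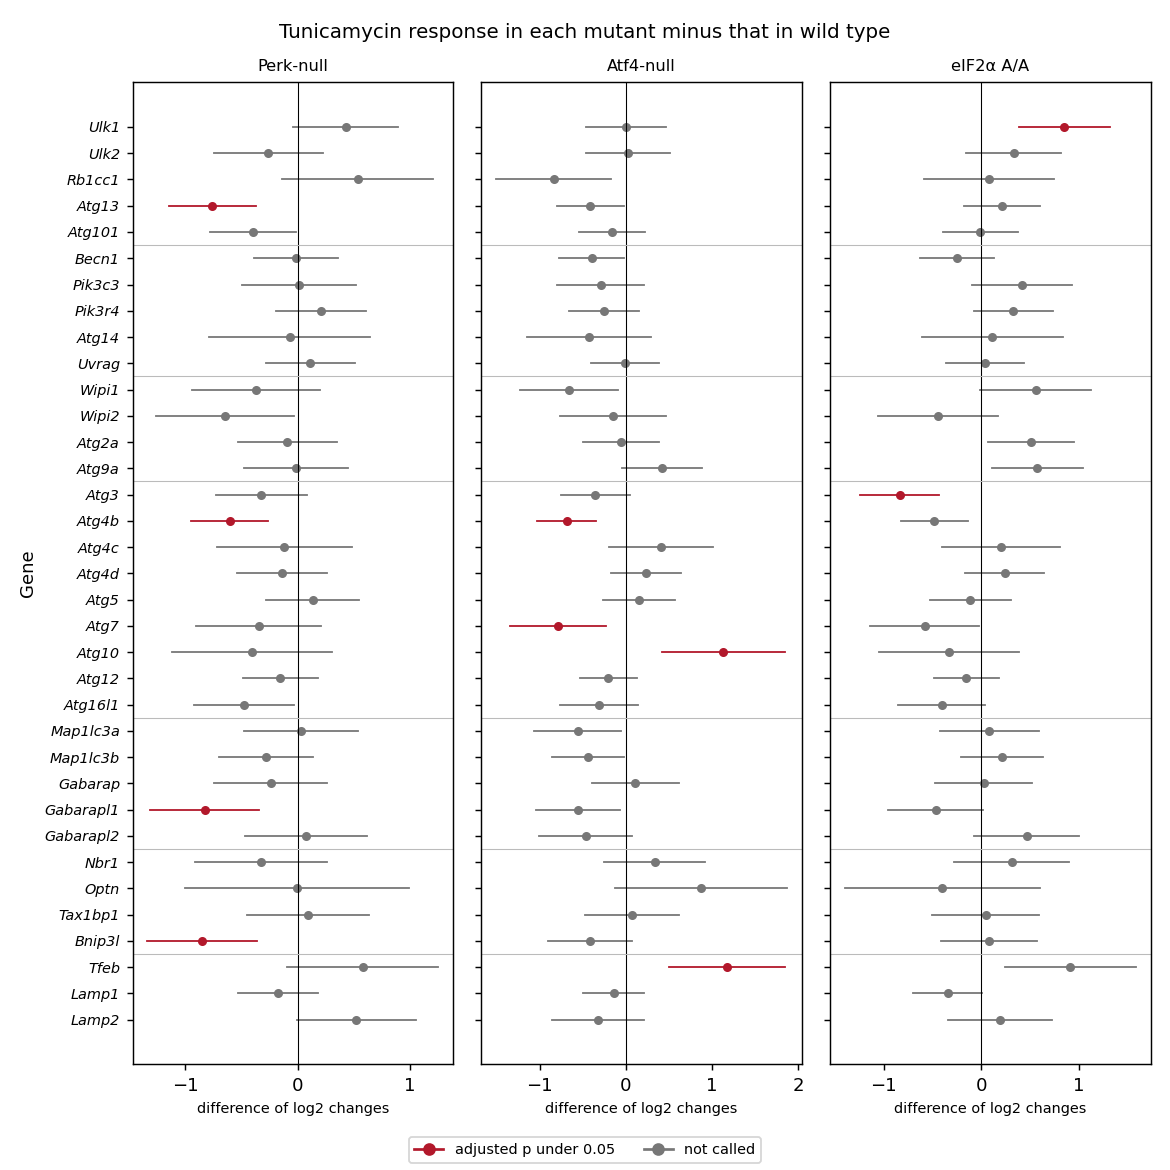
Difference between the tunicamycin response of each mutant and that of wild type for the 35 tested autophagy genes, as a difference of log2 changes (points) with 95% intervals (lines). Red marks an adjusted p under 0.05: Atg13, Atg4b, Gabarapl1 and Bnip3l in Perk-null, Atg4b, Atg7, Atg10 and Tfeb in Atf4-null, and Ulk1 and Atg3 in eIF2a A/A cells.

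Before any treatment 13 autophagy genes differed between Perk-null and wild-type cells, 5 higher and 8 lower in Perk-null cells, where 41.1% of all genes were called, 16.3% higher and 24.8% lower. Bnip3l was at 5.54 and 5.64 in untreated Perk-null cells, against 4.0 and 4.15 on the wild-type arrays of the same run and 4.13 and 4.43 on those of run 1. The difference was 1.65 (SE 0.18), 3.15-fold, with an adjusted p of 3.09e-06. Atg3 was at 1.34 and 1.67 in Perk-null cells, against 2.84 and 3.0 in wild type of the same run and 2.24 and 2.75 in run 1, a difference of -1.41 (SE 0.15, adjusted p = 2.38e-06). Atg5, the protein that Atg12 is joined to, was at 1.6 and 1.46, against 2.70 and 2.99 in the same run and 2.33 and 2.40 in run 1, a difference of -1.37 (SE 0.15, adjusted p = 4.08e-06). For these genes the Perk-null arrays lay outside all 4 wild-type arrays, and the calls held without any single array.

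Atg9a differed widely between the wild-type arrays of the 2 runs, where cell origin, run and slide cannot be told apart. It was at -0.72 and -1.10 in untreated Perk-null cells, against -2.02 and -1.95 in wild type of the same run and 0.12 and 0.21 in wild type of run 1. The difference with the run term was 1.07 (SE 0.17, adjusted p = 0.000115), and against the wild-type arrays of the same run alone it was 1.08 (SE 0.18, adjusted p = 0.000266). Without the run term it was 0.00 (adjusted p = 0.999). Map1lc3b, Gabarapl1 and Tfeb were also higher in Perk-null cells, by 0.74, 0.66 and 0.88, and Becn1, Ulk1, Ulk2, Atg4b, Lamp1 and Lamp2 lower, with differences from -0.39 to -0.79. Without untreated Perk-null replicate 2 Gabarapl1 (adjusted p = 0.0737), Tfeb (0.0975), Lamp1 (0.222) and Ulk1 (0.155) were not called. Without replicate 1 Lamp2 (0.223) and Ulk1 (0.0683) were not. Leaving out wild-type replicate 4 lost Lamp1 (0.062), Lamp2 (0.0673) and Ulk1 (0.0507), and wild-type replicate 3 Lamp1 (0.0787).

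Markers of cell type moved with this comparison. In untreated Perk-null cells 11 of 12 fibroblast markers were lower than in wild type and 0 higher (median -2.39), and Lum and Postn were not above background on either array. Their summed level was 7.95 to 7.97 in Perk-null, against 9.46 to 10.1 in wild-type cells. Of 5 epithelial markers 4 were higher and 0 lower (median 2.80), with a summed level of 5.47 to 5.75, against -0.03 to 0.71. Cdh1 and Krt8 were above background on Perk-null arrays and on no untreated wild-type array. Both muscle markers tested, Des and Myog, were higher too (median 3.03), and 1 of the 5 listed was above background on both untreated Perk-null arrays. Myod1, Actc1 and Myh3 were above background on neither. Of 2 blood markers tested 1 was higher and 0 lower (median 1.37), and of 2 endothelial markers 0 were called. The Perk-null cells thus carry the fibroblast label with epithelial and some muscle markers present, and the part of that in the autophagy differences was not tested.

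Untreated Atf4-null cells differed from wild type in 7 autophagy genes, 2 higher and 5 lower, where 21.1% of all genes were called, 10.4% higher and the others lower. Rb1cc1, the scaffold of the ULK1 complex, was at 1.99 and 2.56 in untreated Atf4-null cells, against -0.01 and 0.59 in wild type of the same run and 0.75 and 0.97 in run 2. The difference was 2.10 (SE 0.24), 4.3-fold, with an adjusted p of 1.53e-05, and was called without any single array. Atg4d, a protease that processes LC3 and GABARAP proteins, was at 2.81 and 2.43, against 3.79 and 3.39 in the same run and 3.31 and 3.41 in run 2, a difference of -0.96 (SE 0.15, adjusted p = 0.000203).

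The other members by size were less even between replicates. Atg10 was at -1.61 and -2.77 in untreated Atf4-null cells, against -1.23 and -1.61 in wild type of the same run and -0.79 and -0.65 in run 2, a difference of -0.78 (SE 0.26, adjusted p = 0.0409). Without Atf4-null replicate 2 it was -0.20 (adjusted p = 0.571), and it was not called without wild-type replicates 1, 3 or 4 (0.137, 0.0516 and 0.0594). Map1lc3a was at 3.60 and 2.82, against 2.40 and 2.59 in the same run and 3.01 and 2.89 in run 2, a difference of 0.71 (SE 0.18, adjusted p = 0.0107) that was 0.32 (0.139) without Atf4-null replicate 1. Bnip3l, Nbr1 and Wipi1 were also lower, with differences of -0.58, -0.63 and -0.60. Their highest adjusted p without 1 array was 0.123, 0.197 and 0.229. Of 12 fibroblast markers 3 were higher and 1 lower in untreated Atf4-null cells. Of the other markers tested, 1 of 5 epithelial and 1 of 2 muscle markers were lower and 0 higher. Of 2 blood and 2 endothelial markers 0 were called, and the part of these shifts was not tested.

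**Figure D4:**
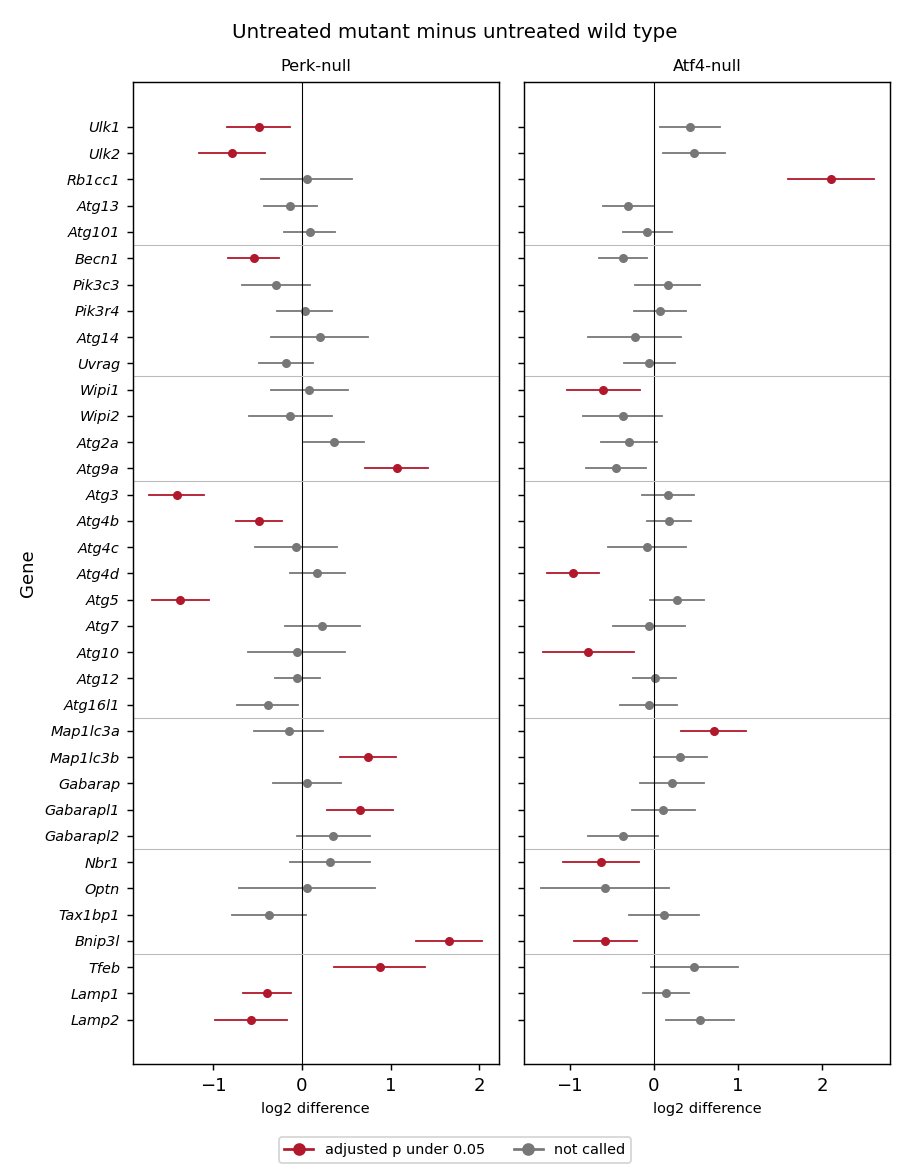
Untreated Perk-null and untreated Atf4-null cells minus untreated wild type for the 35 tested autophagy genes, as log2 differences (points) with 95% intervals (lines), with the scan run as a term. Red marks an adjusted p under 0.05, for 13 genes in Perk-null and 7 in Atf4-null cells, from -1.41 for Atg3 to 1.65 for Bnip3l in Perk-null and up to 2.10 for Rb1cc1 in Atf4-null cells.

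Genes next to the machinery were read from lists of the same pathway. Over all genes 37.5% were called in wild type, 2.28% in Perk-null, 29% in Atf4-null, 4.89% in eIF2a A/A and 4.07% in Fv2E-PERK cells. Of 31 further autophagy genes tested, 7 rose and 4 fell in wild type (median 0.07), 0 changed in Perk-null, 6 rose and 6 fell in Atf4-null, 4 rose in eIF2a A/A and 0 changed in Fv2E-PERK cells. Where none passed, limma's unadjusted p was under 0.05 for 5 higher and 2 lower in Perk-null and 4 higher and 2 lower in Fv2E-PERK cells. In wild type Sqstm1, the p62 cargo receptor, rose by 1.66 (SE 0.16, adjusted p = 1.03e-06) and Wdr45, a lipid-binding WIPI relative, by 1.19 (SE 0.12). Fyco1, which couples autophagosomes to kinesin transport, fell by 1.40 on the log2 scale, and Trp53inp2, an LC3-binding protein, fell by 1.21. Of 35 lysosomal hydrolase and membrane genes 14 rose and 1 fell in wild type (median 0.36) and 1 rose in Perk-null cells (median 0.25). In Atf4-null cells 10 rose and 5 fell (median 0.26). In eIF2a A/A cells 3 rose (median 0.35), and in Fv2E-PERK cells 0 changed (median 0.11). At an unadjusted p under 0.05 in limma, 18 were higher and 2 lower in wild type, and 8 higher and 0 lower in Perk-null cells. These counts were 13 and 5 in Atf4-null, 9 and 0 in eIF2a A/A, and 2 and 1 in Fv2E-PERK cells. The change was positive for 27 of the 35 in wild type, 27 in Perk-null, 21 in Atf4-null, 32 in eIF2a A/A and 24 in Fv2E-PERK cells. The largest rises in wild type were those of Npc1 (1.55), a cholesterol exporter, the calcium channel Mcoln1 (1.07), the chloride transporter Clcn7 (1.07) and the cystine exporter Ctns (1.02).

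Another list held 12 autophagy genes known from the literature as ATF4 or CHOP targets in starved mouse fibroblasts, 11 of them members. In wild type 7 rose and 0 fell (median 0.39, against 0.07 over all genes), where 37.5% of all genes were called, and 8 were higher and 0 lower at an unadjusted p under 0.05. In Perk-null cells 0 were called (median 0.11), where 2.28% of all genes were, with 2 higher and 0 lower at an unadjusted p under 0.05. In Atf4-null cells 2 rose (median 0.07), where 29% of all genes were called. In eIF2a A/A cells 1 rose (median 0.17) and in Fv2E-PERK cells 1 (median 0.24), where 4.89% and 4.07% of all genes were called. At an unadjusted p under 0.05 in limma, 3 were higher and 1 lower in Atf4-null cells. These counts were 6 and 1 in eIF2a A/A, and 3 and 0 in Fv2E-PERK cells. In Atf4-null cells, the 2 that rose were Atg10 and Nbr1, and both had been lower before treatment than in wild type. Both comparisons use the same untreated Atf4-null arrays, so they are not separate results.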

How the data were processed

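Total RNA of 24 samples was hybridised to 1-colour Agilent mouse arrays, 1 array a sample. Per the file headers, Agilent Feature Extraction 10.7.1.1 made the deposited intensity values, already background-subtracted and detrended within each array; the flags for spots well above background and for outliers, of unit other, come from the same deposited files. Signals well above background made up 45.1% to 58.2% of the probes of an array, and its 75th percentile lay between 111, in treated Atf4-null replicate 1, and 418. The number of arrays limits the precision. The authors' deposited table holds log2 values that equalled the log2 intensity within 0.001 for 99.3% of values after an offset per array. Its column medians ran from -0.32 to 0.49, and the baseline used for its centring is unknown, so it served as an alternative.

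From the intensities, log2 minus the array's 75th percentile was computed, and control spots and outlier flags were left out. Of 55681 probes 26625 had 1 gene symbol and 29056 none, and 57 were named differently by array design version. Each of 20150 genes kept its brightest probe. A gene was tested if 1 or more groups had it above background on all their arrays, which held for 14461 genes and left out 5689. limma 3.58.1 (R 4.3.3, statmod 1.5.0) fitted 10 group means and a scan-run term on all 24 arrays (13 residual degrees of freedom), two-sided, with Benjamini-Hochberg adjustment within each comparison. The fit was tested on simulated data with 1 spread per gene for all arrays. In the real data the median absolute difference within a pair ran from 0.0811 (Fv2E-PERK with AP) to 0.443 (untreated Atf4-null). The simulation therefore did not cover unequal spread between groups. Replicate values differed in every group. The labels number replicates, but same-numbered arrays did not deviate together.

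The 36 members and the further lists were chosen with earlier results of these data known. By rule, array values were given for the called members of largest change, up to 6 in the wild-type response, 5 in each other response and 4 in each difference, for 4 control genes, and for members whose arrays overlapped or disagreed, chosen after their values were seen. Alternatives were quantile normalization, normexp background correction with an offset of 50, no filter on dim probes, the mean of all probes, the deposited table and no run term. Others were slide or scan time as a block, a replicate block, only the groups compared, the wild-type runs as separate groups, and each array left out. With separate groups, the wild-type response was taken within 1 run, and Perk-null and Atf4-null cells were set against wild type of their own run. The eIF2a A/A difference then used the mean of both runs.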

Additional observations from a re-analysis of the deposited data

Results flagged for a closer look

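In 5 of 70 groups of 4 wild-type arrays, 1 array stood far from the other 3. The rule flags about 5% of groups by chance where all 4 arrays are alike. Here each group joins 2 runs that differ in cell origin and in spread, so the count cannot be read against that rate. Becn1 was at 2.09 in treated replicate 1, with the others at 1.70 to 1.75. Wipi2 was at 1.41 in treated replicate 2, with the others at 2.20 to 2.36, and Nbr1 was at -0.13 in the same array, with the others at 0.72 to 0.83. Map1lc3b was at 4.75 in untreated replicate 2, with the others at 4.12 to 4.21. Lamp2 was at 4.03 in untreated replicate 1, with the others at 4.59 to 4.66.

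The response to tunicamycin differed between genotypes by limma's test of the difference itself for 10 comparisons of a member. Perk-null minus wild type gave -0.76 for Atg13, -0.61 for Atg4b, -0.83 for Gabarapl1 and -0.85 for Bnip3l. Atf4-null minus wild type gave -0.69 for Atg4b, -0.78 for Atg7, 1.13 for Atg10 and 1.17 for Tfeb. Between eIF2a A/A and wild type the difference was 0.85 for Ulk1 and -0.84 for Atg3. Within wild type, the Atg7 response of run 2 minus that of run 1 was -0.98. The causes were not tested.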

How the results depend on the processing

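Of 56 member calls, 13 kept their direction and their side of the threshold under every alternative run for them, among them Atg13, Uvrag, Gabarapl1, Atg12 and Tfeb in wild type and Atg13 in eIF2a A/A cells. Of 631 values under other processing, 478 kept both, 152 lost the call and 1 turned its direction, Atg7 in the wild-type response within run 2, at -0.035. Of 400 values with 1 array left out, 293 kept both and the others lost the call. The cause was not tested for the counts that follow. The wild-type response, with 14 members called, gave 7 with only the groups compared and 8 within run 2, and 9 to 15 with 1 array left out. The Perk-null response, with 2, gave 1 with quantile normalization or the slide of run 2 as a term, and 0 with normexp, no filter, no run term or only the groups compared, and 0 to 1 with 1 array left out. The Atf4-null response, with 6, gave 10 with quantile normalization or normexp, 3 without the run term and 0 with only the groups compared, and 4 to 7 with 1 array left out. The eIF2a A/A response, with 3, gave 1 with normexp or no filter, 5 with the mean of probes and 18 with only the groups compared. It gave 6 with the wild-type runs as separate groups in place of the run term and 12 with scan time as a block. The AP response, with 1, gave 0 with normexp, no filter or the mean of probes, 12 with only the groups compared and 5 with scan time as a block, and 0 without any array. Perk-null minus wild type, with 4, gave 0 with normexp or no run term and 1 with slide as a random block, only the groups compared or wild type of run 2 alone, and 0 to 6 with 1 array left out. Atf4-null minus wild type, with 4, gave 8 with normexp or scan time as a block, 2 without the run term and 0 with only the groups compared, and 2 to 8 with 1 array left out. For eIF2a A/A minus wild type, with 2, the count was 0 without the run term and 6 with scan time as a block. It was 4 with the wild-type runs as separate groups and the mean of their responses as the comparator. Untreated Perk-null minus wild type, with 13, gave 10 to 14 with 1 array left out. Untreated Atf4-null minus wild type, with 7, gave 4 with no filter, 1 with only the groups compared and 15 with scan time as a block, and 4 to 8 with 1 array left out.

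Same-numbered arrays correlated in their deviations between -0.47 (Perk-null) and 0.07, so the numbers were not taken as pairs. With the replicate block the count was 11 in wild type, 0 in Perk-null, 5 in Atf4-null, 1 in eIF2a A/A and 0 in Fv2E-PERK cells, 1 for Perk-null minus wild type, 5 for Atf4-null minus wild type and 2 for eIF2a A/A minus wild type. With the Perk-null numbers crossed in the replicate block, added after seeing the data, the counts were 0 and, for Perk-null minus wild type, 2. No paired analysis was possible for the untreated differences because a number shared by 2 genotypes names different cell lines. Scan time, the slide of run 2 and the crossed block were chosen after seeing the data. With 2 arrays in most groups, a change that was not called is not shown to be absent.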
